A study of Mus musculus with 6 samples.

Results

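Picalm and 9 genes of clathrin-coated vesicles were followed across the splicing and expression data of 6 libraries from mouse common myeloid progenitors. The members were the rows of both deposited tables named Picalm, Cltc, Clta, Cltb, Ap2a1, Ap2a2, Ap2b1, Epn1, Eps15 or Clint1. All 10 genes were among the 13932 genes of the gene table, and they held 207 of the 151811 splice junctions, from 4 in Cltb to 33 in Cltc. Picalm and Clta were chosen by their shares of acceptors and cassette exons in these same libraries, S34F against WT, so those shares are described without a test. The levels of all 10 genes, and the splicing of the 8 other members, were tested.

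Clathrin is built from heavy chains (Cltc) and light chains (Clta and Cltb) that assemble into a cage around a budding membrane. At the plasma membrane the adaptor complex AP2 links the cage to lipids and cargo receptors, and Picalm, epsin 1 (Epn1) and Eps15 help to start the coat, bend the membrane and recruit cargo such as SNARE proteins. Clint1 serves clathrin coats at the trans-Golgi network and endosomes. In red cell precursors this pathway takes up transferrin-bound iron, a process in which Picalm is known to take part, and PICALM is a fusion partner gene in leukaemia.

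The cells were sorted from bone marrow as lineage-negative, c-Kit-positive, Sca-1-negative, CD34-positive cells without Fc gamma receptor, and were donor-derived. All mice had been transplanted with marrow carrying the rtTA transactivator and a doxycycline-inducible U2AF1 transgene, in its wild-type form (WT) or with the S34F substitution, and had eaten doxycycline chow for 5 days, begun more than 6 weeks after transplantation. The WT libraries therefore also came from induced cells with the transgene. Each of the 3 libraries per genotype was a pool of 4 to 5 mice. The sources used here do not give the promoter that drives rtTA, the ages of the mice or whether pools shared a marrow donor. U2AF1 is the small subunit of the factor that binds the AG at the end of introns, and the comparison asked which transcripts and splice choices differed after induction of the mutant.

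Some properties of the libraries went with genotype. The S34F libraries held 46827909 to 51862032 gene counts and 41003848 to 44589528 junction counts, and the WT libraries 54727541 to 94562984 and 46491099 to 82730420, so the totals did not overlap. Mitochondrial genes took 2.44 to 2.77% of the counts in S34F and 1.27 to 2.04% in WT. U2af1 had 6159 to 6311 raw counts in S34F and 5791 to 12060 in WT. These are not scaled for the unequal totals above, so they do not compare its level between genotypes. Reads of the transgene were not separated from those of the gene. Replicate 1 of each genotype had counts of the Y-linked gene Ddx3y (5714 in S34F and 5580 in WT) and the other libraries 0, so replicate 1 held male cells in both genotypes. In WT replicate 3, 9 junctions with at least 100 reads in each other library had no read, against 1 to 4 such junctions in any other library, and 1 of the 9 was in Clta. All 8 markers of common myeloid progenitors were measured, with a summed level of 7041 to 8593 CPM (counts scaled by edgeR to a common library size of 1000000) in S34F and 5894 to 9511 in WT. Mpo made up most of this sum, at 4322 to 5948 CPM in S34F and 3043 to 6538 in WT. By estimate 4 of the 8 were higher in S34F and 4 lower. Only Irf8 did not overlap, at 303, 276 and 418 CPM in S34F and 455, 441 and 438 in WT (edgeR adjusted p = 0.538). Of all genes, 8.47% were likewise lower without overlap. Dendritic cell and macrophage markers summed to 49.6 to 82.8 CPM in S34F and 194 to 383 in WT over 12 measured genes of 14, of which 11 were lower in S34F by estimate. C1qa and C1qb were not in the gene table, and Emr1, which the list also held under its newer symbol Adgre1, was counted once. Megakaryocyte markers summed to 87.8 to 117 CPM in S34F and 127 to 173 in WT, and erythroid markers to 102 to 172 and 134 to 212. A single gene made up most of each sum. Itga2b had 69.8 to 100 CPM in S34F and 113 to 150 in WT, and erythroid Car2 77.1 to 147 and 106 to 148. Of the 6 megakaryocyte markers measured, 2 were higher and 4 lower in S34F by estimate. Gated-out markers (lineage, Sca-1 and Fc gamma receptor) summed to 111 to 195 CPM in S34F and 136 to 253 in WT. All 6 measured of 8 were lower in S34F by estimate, where 49.1% of all genes were higher, and each overlapped in range. Neutrophil markers summed to 2586 to 4796 CPM in S34F and 3155 to 3845 in WT. In these bulk samples, fewer cells of a type and less RNA per cell cannot be told apart, and the part of these markers in the results below was not tested.

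Picalm binds membrane lipid through an N-terminal domain, and its alternative exons lie in the coding part behind it. The gene spans chr7:97278723-97357610 of mm9 on the plus strand. One of its donors (last exon base 97337767) was joined to 3 acceptors close together. In S34F a larger share of its reads went to the proximal acceptor, whose exon begins 15 nt earlier, and a smaller share to the distal one. The bases around all 3 acceptors (chr7:97339606-97339697) are shown to place the acceptors, and the part of these bases in the shares was not tested. Capitals mark the last 3 intron bases of each acceptor, from the proximal to the distal to the third.
Picalm acceptors: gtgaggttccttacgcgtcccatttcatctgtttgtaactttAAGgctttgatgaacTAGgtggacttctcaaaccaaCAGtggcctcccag

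The proximal exon begins at 97339651 and is 132 nt long, and 2 of the 3 annotated Picalm transcripts use it. The distal exon begins at 97339666, is 117 nt long and is used by 1 transcript. The third acceptor, at 97339687, lies 36 nt after the proximal one and is in no annotated transcript. Both annotated exons are coding, and the gaps of 15 and 36 nt are multiples of 3 and so keep the reading frame length. The base just before the AG, at intron position -3, was A for the proximal acceptor, T for the distal one and C for the third. Over all acceptors in the junction table, 6.33% had A there, 62.7% C and 30.6% T, and among the 184 acceptors of the 10 genes 9.78% had A. Of the 20 bases before the AG, the -3 base included, 14 were pyrimidines at the proximal, 11 at the distal and 10 at the third acceptor.

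The proximal junction had 218, 177 and 241 reads in S34F and 144, 185 and 278 in WT. The distal junction had 305, 255 and 300 reads in S34F and 424, 572 and 720 in WT, and the third 30, 2 and 12 against 2, 0 and 0. As a share of the reads of the donor, the proximal acceptor took 39.4, 40.8 and 43.6% in S34F and 25.3, 24.4 and 27.9% in WT. All S34F libraries were above all WT libraries, with a mean of 41.3 ± 2.12% against 25.9 ± 1.78% (SD, n = 3), a difference of 15.4 points. The distal share was 56.1 ± 2.38% in S34F and 74.0 ± 1.74% in WT. The widest Wilson 95% interval of any single library was 9.22 points for these shares, which covers counting error only.

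There were 0.715, 0.694 and 0.803 proximal reads per distal read in S34F and 0.340, 0.323 and 0.386 in WT. The third acceptor took 5.42, 0.461 and 2.17% in S34F and 0.351, 0 and 0% in WT. S34F replicate 1 held 30 of the 44 S34F reads of the third acceptor, and in the WT libraries without a read the counts allowed shares up to 0.396 and 0.301%. Because these values and their contrast chose the gene, they carry no test. Over all 5753 pairs of alternative acceptors in the table, the genotypes did not overlap in 16.1% (percentage of pairs), from which nothing is read for this pair.

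The level of the 3 junctions summed overlapped between genotypes. They together had 12.4, 10.6 and 12.9 reads per 1000000 junction reads in S34F and 12.3, 12.1 and 12.1 in WT. On that scale the proximal junction stood at 4.94 ± 0.647 in S34F and 3.14 ± 0.203 in WT (SD, n = 3), and the distal junction at 6.68 ± 0.405 and 8.99 ± 0.252. So the proximal junction was higher and the distal junction lower in every S34F library, while the sums overlapped.

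**Figure D1:**
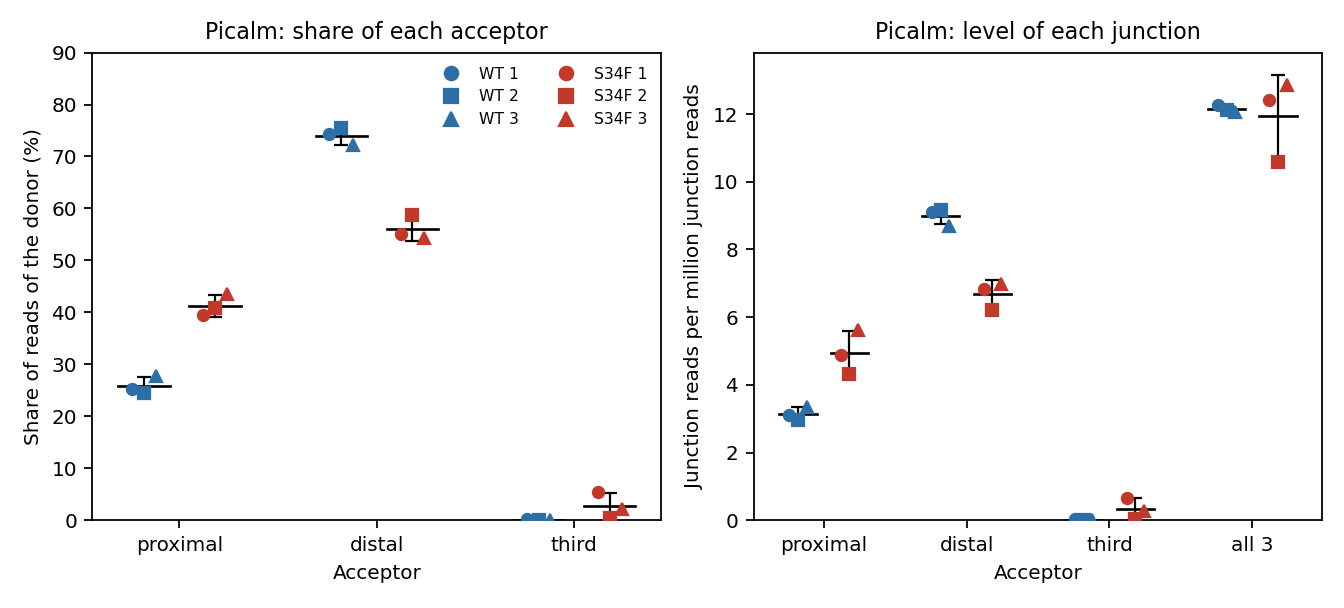
The left plot gives the share of the donor's reads (percent) that went to each of the 3 Picalm acceptors, and the right plot gives the same junctions as reads scaled to the same total of junction reads. Each point is a library, and lines and bars are the mean ± SD of 3 libraries. The proximal share lies between 39.4 and 43.6% in S34F and between 24.4 and 27.9% in WT, while the sum of all 3 junctions overlaps.

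The same gene had a cassette exon of 150 nt upstream (chr7:97330729-97330878), coding and present in 2 of 3 annotated transcripts. Its start is shown because it too has a second acceptor, 21 nt inside, that is in no annotated transcript. Capitals mark the last 3 intron bases of each acceptor.
Picalm 150 nt exon, chr7:97330684-97330760: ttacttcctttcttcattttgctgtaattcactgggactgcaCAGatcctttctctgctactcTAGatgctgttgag

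The inclusion level of this exon, from both of its junctions, was 26.7, 23.1 and 27.6% in S34F and 37.7, 27.5 and 41.7% in WT. The means were 25.8 ± 2.39% and 35.6 ± 7.31%, a difference of -9.82 points, and WT replicate 2 lay within the S34F range. From the downstream junction alone the genotypes did not overlap (29.3 ± 4.07% against 39.6 ± 5.53%), and from the upstream junction alone they did (21.96 ± 1.17% against 31.0 ± 9.87%). Across all cassette exons tested, 19.3% of the 8595 did not overlap, and nothing is read from that for Picalm.

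Further Picalm choices concerned a few percent of reads. A coding 24 nt exon (chr7:97342783-97342806, in 1 of 3 transcripts) was included at 1.39, 0.441 and 2.08% in S34F and 2.21, 1.58 and 4.80% in WT, so the ranges overlapped. It is shown with its flanks, the exon in capitals.
Picalm 24 nt exon, chr7:97342758-97342816: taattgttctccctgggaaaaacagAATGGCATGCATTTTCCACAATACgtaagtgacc
An unannotated 102 nt exon (chr7:97354670-97354771) was included at 0.899, 3.44 and 1.53% in S34F and 0.379, 0.413 and 0.576% in WT, without overlap. It stood under the 2% share that a cassette exon needed for the test, and it rested on few reads. Its upstream junction had 2, 16 and 2 reads in S34F and 0, 6 and 10 in WT. Its downstream junction had 8, 13 and 14 reads in S34F and 4, 0 and 2 in WT. From the upstream junction alone the genotypes overlapped, and from the downstream junction alone they did not. The acceptor 21 nt inside the 150 nt exon was used by 0.880, 1.79 and 2.35% of the reads of its donor in S34F and by 3.30, 0.647 and 4.42% in WT. Near the 5′ end, an acceptor at 97298615 took 0.246, 0 and 2.14% of its donor in S34F and 1.64, 2.20 and 1.35% in WT. Both of these overlapped.

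The reads of Picalm were also spread unlike along the gene. Of the reads of its 13 introns that were seen in a single form, the 4 nearest the 5′ end held 29.9, 29.5 and 28.8% in S34F and 26.8, 23.3 and 16.0% in WT. All S34F libraries were above all WT libraries, and WT replicate 3, the most deeply sequenced, was lowest. In Ap2a2 the same share was higher in S34F without overlap (32.2 ± 0.660% against 30.5 ± 0.889%), and in Ap2b1 it was lower (32.8 ± 0.681% against 33.7 ± 0.129%). In the 6 other members with such introns, the genotypes overlapped. No share over all genes is given for this measure, so nothing is read from how many members did not overlap. The acceptor shares above compare junctions of the same donor, while the inclusion levels average junctions at both ends of an exon. The part of this profile in these shares and in the Picalm level was not tested.

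**Figure D2:**
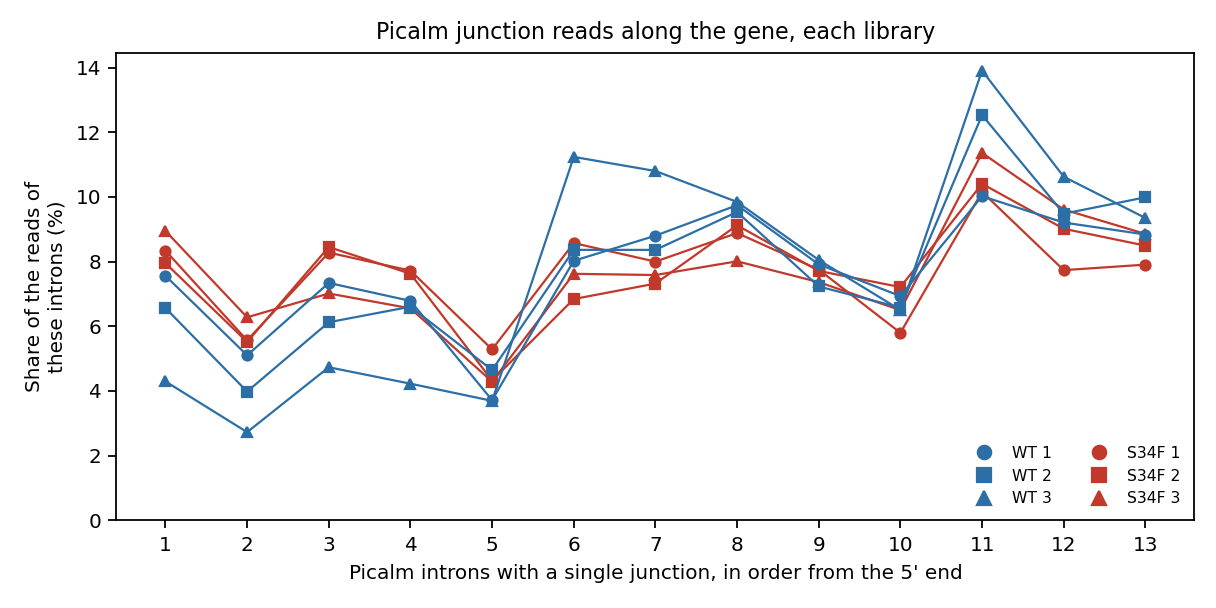
Share of the reads (percent, vertical axis) that each of 13 Picalm introns with a single junction held, in order from the 5′ end (horizontal axis), with a line per library. The first 4 introns hold 16.0% of these reads in WT replicate 3, the lowest line there, and 28.8 to 29.9% in the S34F libraries.

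Clta, the light chain, has small alternative coding exons that are best known from neurons. A 36 nt exon (chr4:44044272-44044307, in 2 of 7 annotated transcripts) is shown in capitals between its flanks.
Clta 36 nt exon, chr4:44044247-44044317: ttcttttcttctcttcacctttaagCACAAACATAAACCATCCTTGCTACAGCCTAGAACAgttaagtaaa
It was included at 1.18, 1.17 and 1.05% in S34F and 1.08, 0.621 and 1.01% in WT, with means of 1.13 ± 0.0700% and 0.905 ± 0.248% that overlapped in range. From its upstream junction alone, the S34F libraries were higher without overlap (1.42 ± 0.0692% against 1.03 ± 0.325%). A 54 nt exon of Clta, coding in 3 of 7 transcripts, had 126, 114 and 121 reads at its upstream junction in S34F and 138, 152 and 0 in WT. The 0 was in WT replicate 3, the library with the most junctions at 0 of this kind, and the other libraries gave the junction 4.20 to 5.03% of the reads of its donor. Of 2 Clta donors 6 nt apart, the upstream one took 6.00, 6.15 and 3.26% in S34F and 5.20, 5.86 and 5.74% in WT, with overlap.

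At the level of whole genes, none of the 10 members passed the test. By edgeR's quasi-likelihood estimate, 6 of 10 were higher in S34F and 4 lower, where 49.1% of all genes were higher, with a median log2 fold change of 0.03, against -0.0052 over all 13905 genes tested. The adjusted p-values ran from 0.569 to 0.936, no member reached an unadjusted p under 0.05, and DESeq2 called none (adjusted p 0.548 to 0.957). Over all genes, edgeR called 0% at adjusted p under 0.05, 9.1% had an unadjusted p under 0.05, and DESeq2 called 0.69%. The summed level of the 10 genes was 1502 to 1527 CPM in S34F and 1487 to 1540 in WT. In 2 members, Cltb and Ap2b1, the genotypes did not overlap, against 15.6% of all genes. Both were lower in S34F, as were 8.47% of all genes without overlap, while 7.16% were higher.

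Picalm was read at 149.5, 124.9 and 138.7 CPM in S34F and 127.8, 132.3 and 122.9 in WT. The means were 137.7 ± 12.3 and 127.7 ± 4.67 CPM (SD, n = 3), a log2 fold change of 0.11 (SE 0.10, edgeR adjusted p = 0.701), and the ranges overlapped. It was 0.046 without S34F replicate 1 and 0.18 without S34F replicate 2. The heavy chain Cltc stood at 437, 388 and 405 CPM in S34F and 376, 399 and 426 in WT. Clta stood at 187, 220 and 205 CPM against 185, 195 and 205. Both overlapped, with log2 fold changes of 0.04 and 0.06 (edgeR adjusted p = 0.909 and 0.823).

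The second light chain Cltb was lower in every S34F library, at 14.4, 13.1 and 14.0 CPM against 14.6, 15.6 and 20.9. WT replicate 3 stood above the other WT libraries, and the S34F and WT values nearest to each other were 14.4 and 14.6. The log2 fold change was -0.30 (SE 0.16, edgeR adjusted p = 0.581), and -0.13 without WT replicate 3. Ap2b1, the beta subunit of AP2 that binds clathrin, was lower in every S34F library as well, at 193, 193 and 198 CPM against 208, 220 and 231. Its log2 fold change was -0.17 (SE 0.09, edgeR adjusted p = 0.569), so neither gene passed the threshold. The alpha subunits, which bind membrane lipid and endocytic adaptors, overlapped between genotypes. Ap2a1 had 62.7, 62.5 and 60.2 CPM in S34F and 67.0, 53.4 and 61.3 in WT. Ap2a2 had 102, 90.9 and 99.6 CPM in S34F and 103, 102 and 102 in WT.

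Epsin 1, which bends membrane and binds ubiquitinated cargo, had the widest relative spread of the 10 members among WT libraries. Epn1 stood at 54.3, 62.3 and 66.2 CPM in S34F and at 74.8, 34.6 and 45.9 in WT, so the WT libraries spanned the S34F range. Its log2 fold change was 0.24 (SE 0.26, edgeR adjusted p = 0.749), 0.60 without WT replicate 1 and 0.01 without WT replicate 2. Eps15, a scaffold of early coats, had 83.3, 92.2 and 86.3 CPM in S34F and 83.4, 115 and 106 in WT, with WT replicate 1 inside the S34F range (log2 fold change -0.22, SE 0.13, edgeR adjusted p = 0.604), -0.34 without that library and -0.12 without WT replicate 2. Clint1 had 243, 255 and 246 CPM in S34F and 246, 227 and 220 in WT (log2 fold change 0.10, SE 0.09, edgeR adjusted p = 0.696). Without WT replicate 1, the edgeR adjusted p of Epn1 was 0.0547, of Eps15 0.0611, of Ap2b1 0.1503 and of Cltb 0.157. Without that library edgeR called 1172 of all genes, against 0 with all libraries, so these lower values are not particular to the members.

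**Figure D3:**
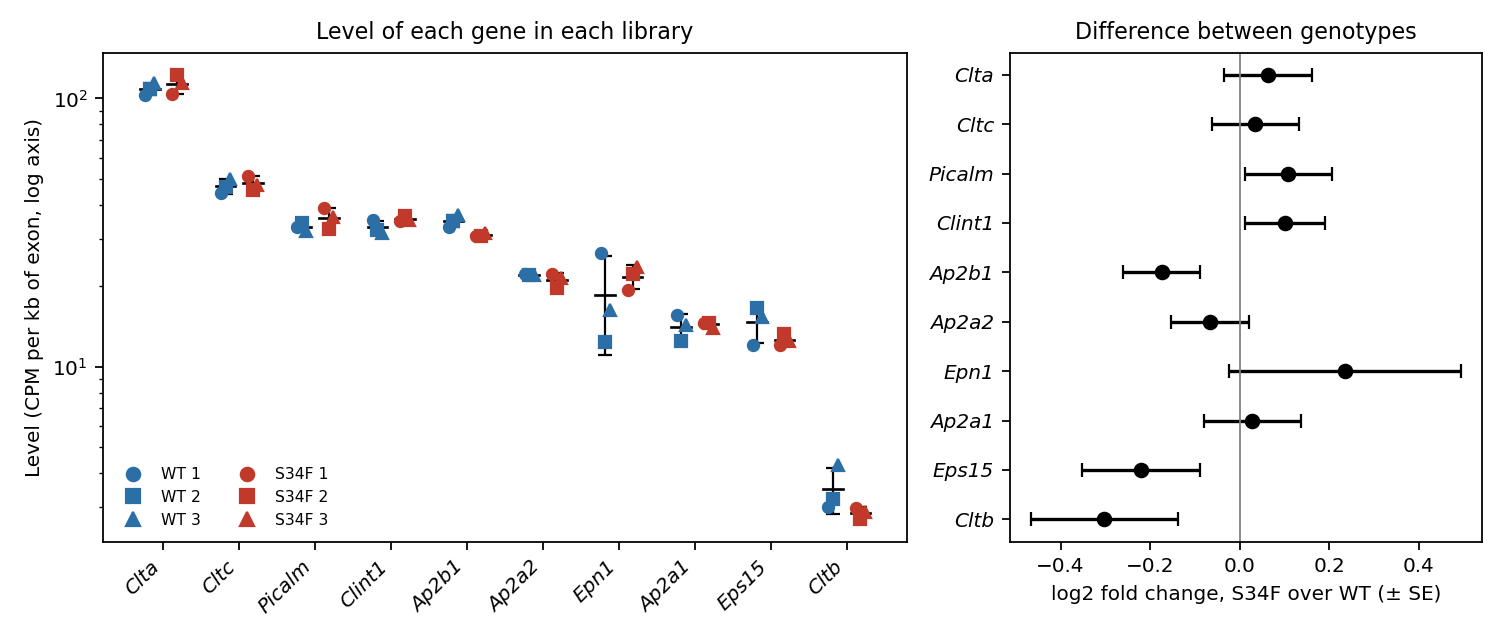
The left plot gives the level of each gene in each library as CPM per kb of exon on a log axis, with the mean ± SD of 3 libraries, and the right plot gives the log2 fold change of S34F over WT with its standard error from edgeR. Clta stands highest and Cltb lowest in every library, and 6 of the 10 fold changes lie above 0.

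For levels per length, the length was that of all annotated exons of a gene merged, so the order depends on the annotation. Per length of exon, Clta was the most abundant member at a level of 110.8 ± 7.30 CPM per kb (SD, n = 6 libraries), followed by Cltc at 47.7 ± 2.69. Picalm (34.5 ± 2.60), Clint1 (34.3 ± 1.90) and Ap2b1 (32.9 ± 2.46) followed, and neighbours among these 3 overlapped in range. Ap2a2 (21.5 ± 0.983), Epn1 (20.1 ± 5.18), Ap2a1 (14.2 ± 1.03) and Eps15 (13.6 ± 1.92) came next, each overlapping the next. Cltb was the lowest at 3.18 ± 0.576. The order held in all 6 libraries from Clta to Cltc, from Cltc to Picalm, from Ap2b1 to Ap2a2 and from Eps15 to Cltb. By mean FPKM in the authors' deposited table the order differed, with Clint1 (30.7) above Cltc (28.8), Ap2b1 (23.6) above Picalm (16.2) and Ap2a1 (14.2) above Ap2a2 (11.2). Epn1 (16.3) and Picalm were nearly level there. The genes most like Picalm over the 6 libraries, among 9164 genes with a mean of at least 10 CPM, were Slc35d1 (Pearson r = 0.995 of log2 CPM), Hnrnpr (0.981) and Polg2 (0.976), a description of 6 points that share their depth and genotype.

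In the splicing of the 8 other members, no choice passed edgeR at adjusted p under 0.05, and neither DESeq2 nor limma called any. Of 33 acceptor choices in 7 genes, 1 had an unadjusted p under 0.05 against 7.5% of all 29709 tested, and in 2 the genotypes did not overlap against 17% of all. Of 25 donor choices in 5 genes, 0 had an unadjusted p under 0.05 against 6.41% of 30084, and 4 did not overlap against 14.8%. Where a site had only 2 forms, each form was counted as a choice with the same p, also over all features. The 4 donor choices were both forms of a site in Epn1 and of a site in Clint1. None of the 6 cassette exons or of the 7 pairs of alternative acceptors had an unadjusted p under 0.05 (10.2% and 7.11% of all), and in none were the genotypes apart. Over all features, edgeR called 0% of acceptor choices, 0.00997% of donor choices and 0% of the other types. DESeq2 called 1.27% of acceptor choices, 0.804% of donor choices, 1.24% of cassette exons and 1.53% of acceptor pairs. Cltb had 4 junctions and no choice to test.

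Eps15 held the acceptor choice of lowest p among these genes. It lies 62 nt inside a coding 182 nt exon (chr4:109055390-109055571, in 2 of 7 transcripts) and is in no annotated transcript. The sequence shows both acceptors, the last 3 intron bases in capitals.
Eps15 acceptors, chr4:109055365-109055462: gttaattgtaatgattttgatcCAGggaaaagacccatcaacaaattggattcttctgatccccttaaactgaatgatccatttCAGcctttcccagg
The inner acceptor had 0 of 252, 0 of 267 and 0 of 308 reads of the donor in S34F, and 6 of 325, 3 of 620 and 17 of 725 in WT. These are 1.85, 0.484 and 2.34% in WT, while the 0 of 827 reads in S34F allow a share of up to 0.363%. The unadjusted edgeR p was 0.0175 and the adjusted p = 0.602, and DESeq2's adjusted p was 0.134. Across the 10 other settings tried (filters, tools, left-out libraries and a replicate block), its adjusted p ranged from 0.290 to 0.960. The 182 nt exon itself was included at 87.0, 86.4 and 73.4% in S34F and 85.8, 77.0 and 80.0% in WT, with overlapping ranges (edgeR adjusted p = 0.930).

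Ap2b1 has a coding 42 nt exon (chr11:83178297-83178338, in 1 of 4 transcripts) in capitals here.
Ap2b1 42 nt exon, chr11:83178272-83178348: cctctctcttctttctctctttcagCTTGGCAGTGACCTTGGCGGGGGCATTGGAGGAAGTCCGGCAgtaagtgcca
It was included at 32.4, 43.2 and 45.8% in S34F and 32.3, 25.6 and 41.8% in WT. The means of 40.5 ± 7.14% and 33.2 ± 8.13% (SD, n = 3) lay within the spread of the libraries (edgeR adjusted p = 0.753). A 75 nt coding exon of Clint1 (chr11:45715713-45715787, in 2 of 4 transcripts) was included at 92.2, 89.8 and 85.2% in S34F and 84.9, 85.9 and 91.8% in WT (edgeR adjusted p = 0.894). A 21 nt coding exon of Cltc (chr11:86514563-86514583, in 2 of 7 transcripts) was included at 1.64 ± 0.247% and 1.21 ± 0.865%. Its upstream junction had no read in WT replicate 3.

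**Figure D4:**
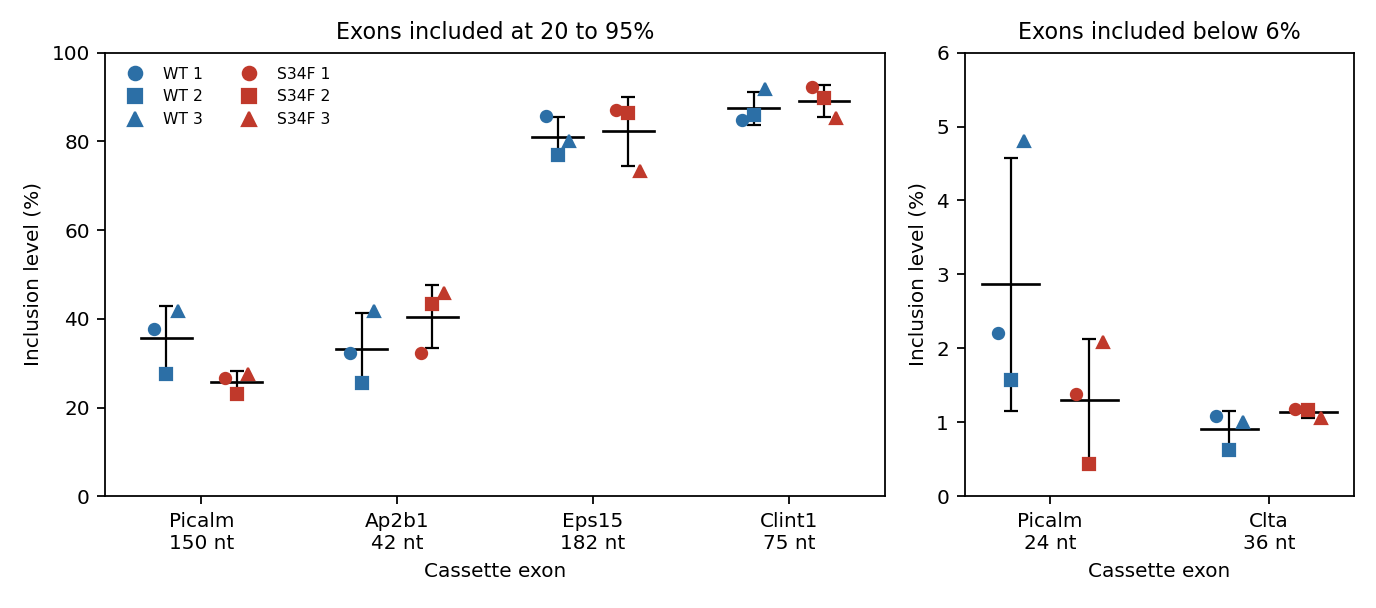
Inclusion level (percent) of cassette exons named by gene and length, from both junctions, with a point per library and the mean ± SD of 3 libraries. The right plot has its own axis for the exons included below 6%. The Picalm 150 nt exon has means of 25.8% in S34F and 35.6% in WT, with WT replicate 2 inside the S34F range, and the other exons plotted overlap too.

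The choices of these 8 genes in which the genotypes did not overlap were the inner Eps15 acceptor and 1 choice each in Epn1 and Clint1. In Epn1 a junction that leaves out a non-coding 104 nt exon (from 5032079 to 5035332 on chromosome 7) took 2.65, 3.07 and 4.88% of the reads of its donor in S34F and 4.93, 6.81 and 10.2% in WT (edgeR adjusted p = 0.700). Of the reads of its acceptor it took 5.48, 7.69 and 10% in S34F and 10.5, 13.7 and 15.5% in WT (edgeR adjusted p = 0.860), which are the same reads over another total. In Clint1, 2 donors 6 nt apart were used unequally, and the upstream one took 2.68, 4.47 and 2.91% in S34F and 2.30, 1.69 and 2.31% in WT (edgeR adjusted p = 0.793).

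Close pairs of acceptors in the 8 other members overlapped between genotypes. Epn1 and Ap2a2 each have acceptors 3 nt apart, shown because they differ by the least possible step that keeps the frame length, with the last 3 intron bases of each in capitals.
Epn1 acceptors, chr7:5047460-5047503: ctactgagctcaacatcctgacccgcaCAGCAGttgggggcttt
Ap2a2 acceptors, chr7:148797202-148797245: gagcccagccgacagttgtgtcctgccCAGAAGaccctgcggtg
The proximal Epn1 acceptor took 49.6, 54.7 and 54.5% in S34F and 48.2, 52.8 and 48.4% in WT (edgeR adjusted p = 0.954). The proximal Ap2a2 acceptor, in no annotated transcript, took 5.71, 11.04 and 9.74% in S34F and 9.45, 3.28 and 4.68% in WT (edgeR adjusted p = 0.859). Of the other Epn1 pairs, the proximal of acceptors 67 nt apart took 73.6 ± 3.11% of reads in the S34F libraries against 69.1 ± 6.64% in the WT libraries (edgeR adjusted p = 0.926), and that of acceptors 84 nt apart 96.9 ± 0.240% and 96.9 ± 3.27% (0.988). In Ap2a1, the proximal of acceptors 53 nt apart took 3.74 ± 4.16% and 2.62 ± 2.31% (edgeR adjusted p = 0.996). In Clint1, the proximal of 2 acceptors 54 nt apart took 12.8 ± 1.65% and 16.0 ± 3.31% (edgeR adjusted p = 0.861). In Ap2b1, the proximal of 2 acceptors 114 nt apart took 96.4 ± 1.95% and 94.6 ± 2.43% (edgeR adjusted p = 0.913). An Ap2b1 donor (last exon base 83116339) gave 94.6 ± 2.40% and 93.0 ± 2.51% of the reads of its acceptor (edgeR adjusted p = 0.942), and an Epn1 donor (5032240) 10.1 ± 1.58% and 11.6 ± 1.19% (0.966). A 253 nt exon of Epn1 was included at 97.4 ± 0.845% and 97.2 ± 3.38% (edgeR adjusted p = 0.970). An Ap2a2 acceptor (148806739) took 1.05 ± 1.15% and 1.74 ± 1.62% of its donor (edgeR adjusted p = 0.961), and an Eps15 junction that skips a 70 nt exon 1.76 ± 2.18% and 0.630 ± 1.09% (0.909). The genotypes overlapped in each of these.

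Ap2a1 and Ap2a2 each hold an intron that begins with AT and ends with AC, a kind that made up 0.105% of all junctions. Its reads per read of the neighbouring junctions were 1.07 ± 0.0143 in S34F and 0.9499 ± 0.251 in WT for Ap2a1, and 1.23 ± 0.146 and 1.30 ± 0.107 for Ap2a2, with overlapping ranges in both.

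Around the 10 members, 61 of 66 other genes of clathrin transport (further adaptors, dynamins, membrane-bending and uncoating proteins) were measured. By estimate 31 were higher in S34F and 30 lower, with a median log2 fold change of 0.0016. None passed edgeR or DESeq2 at adjusted p under 0.05, and 5 had an unadjusted p under 0.05 (3 higher and 2 lower), against 9.1% of all genes. The genotypes did not overlap in 4 that were higher and 9 that were lower, against 7.16% and 8.47% of all genes. The lowest p belonged to Ap3s1, the small subunit of the AP3 adaptor, at 172, 213 and 171 CPM in S34F and 147, 140 and 116 in WT (log2 fold change 0.46, SE 0.13, edgeR adjusted p = 0.538). Next were Sh3gl1, an endophilin (-0.32), Hip1, which links clathrin to actin (0.50), Ap1g1 of the AP1 adaptor (0.29), Bin1, an amphiphysin (-0.35), and Itsn1, a scaffold (-0.34), all as log2 fold changes with edgeR adjusted p from 0.538 to 0.565. Their splicing gave 0 calls by edgeR or DESeq2 in any of the 4 types. Unadjusted p under 0.05 was found for 21 of 221 acceptor choices (9.50%, against 7.5% of all), 19 of 218 donor choices (8.72%, against 6.41%), 12 of 61 cassette exons (19.7%, against 10.2%) and 5 of 38 acceptor pairs (13.2%, against 7.11%). Events of a single gene can share reads.

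Of 13 cargo receptors and SNAREs, 12 were measured, 5 higher and 7 lower in S34F by estimate, with none called by edgeR or DESeq2. The 3 with an unadjusted p under 0.05, against 9.1% of all genes, were all lower. Tfr2, a transferrin receptor of red cell precursors, had 44.8, 45.1 and 42.4 CPM in S34F and 74.3, 50.7 and 52.2 in WT (log2 fold change -0.42, SE 0.16, edgeR adjusted p = 0.538). Epor, the erythropoietin receptor, had 2.53, 2.91 and 2.99 CPM in S34F and 6.34, 3.12 and 4.44 in WT (-0.72, SE 0.28, edgeR adjusted p = 0.548). Vamp8, an endosomal SNARE, had 115, 128 and 117 CPM in S34F and 126, 150 and 169 in WT (-0.31, SE 0.12, edgeR adjusted p = 0.548). Lrp1, an endocytic receptor (0.46), and the transferrin receptor Tfrc (0.26) were next by p, as log2 fold changes. The erythroid markers, of which Epor is one, were lower by estimate in all 9 measured of 11, and their part in these values was not tested.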

How the data were processed

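Stranded libraries of RNA depleted of ribosomal RNA were read in pairs of 100 bp, per the labels' protocols. The build was mm9, and the tools named were HTSeq 0.5.4p1, DESeq2 1.6.1, TopHat2 2.0.8, SAMtools, Bowtie2 2.1.0 and Cufflinks 2.1.1, per the submitters' processing notes. The sources used here do not give their roles, the annotation or the strand setting of the counting, so reads of genes overlapping on the opposite strand (Fuz at Ap2a1, and others at Ap2a2, Ap2b1 and Eps15) may be included.

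The authors deposited raw read counts per gene and per junction, which all tests used. Per the file headers they also deposited fold changes as a ratio and as log2 values, p-values, FPKM per gene, a mean count per junction as a signal and a dispersion and statistic as a score. Of these, only FPKM was used, to order levels.

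The genotype was taken from sample titles, since the genotype characteristic read the same in all 6. Introns of the GT-AG kind (149533) matched the genome after a shift of 1 base inward in 99.9846%, so printed positions are exon bases of mm9, counted from 1. Sequences came from that genome (NCBIM37) and transcripts from GENCODE.

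Counts were tested with edgeR 4.0.16 (TMM, quasi-likelihood F test, two-sided) in R 4.3.3, on all genes or events, with Benjamini-Hochberg adjustment over all of them. DESeq2 1.42.0 and limma 3.58.1 (0.5 added to counts) were alternatives. A splicing event needed 20 reads in every library and shares of at least 2% (1% for single acceptors or donors) for each form, and entered as 2 counts per library with the interaction of genotype and form tested. The edgeR tests of gene levels and splicing, but not the other tools, were also run on simulated data with known changes and a set spread. There, edgeR at adjusted p under 0.05 recovered 58% of 1.5-fold changes in gene level. Of 1.5-fold changes in the odds of a splicing form, it recovered 6 to 18%, depending on the event type. False calls numbered 17 for gene level and 3 to 6 for the splicing types. Splicing changes were placed only in events with many reads and no rare form. These rates therefore do not describe the forms above that took a few percent of reads. Inclusion levels average both inclusion junctions. Pools are the replicates, and 3 against 3 allow no exact permutation p under 0.1. The members and lists were chosen with earlier results of these data known. The rule for names took every member, up to 3 events of lowest p per member and type (not repeated where they share reads with one already given), with the Picalm acceptors and the Picalm and Clta exons, the 6 genes of lowest p in each other list (1 of them is not reported here), and the 3 genes most correlated with Picalm.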

Additional observations from a re-analysis of the deposited data

How the results depend on the processing

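The Picalm proximal share was higher in S34F by 14.2 to 16.4 points when single libraries were left out, and by 16.5 points when only the 2 annotated acceptors were counted, a choice made after seeing the data. The Picalm 150 nt exon differed by -13.9 to -6.79 points. Both shares were among the values that chose Picalm. The proximal shares did not overlap between genotypes, so leaving out a library could not reverse their difference. Nothing is read from how steady these differences were. No member was called at the gene level, and none of the 8 other members in splicing, under any alternative run. Of 232 estimates of members and their events, the direction reversed only when single libraries were left out. The log2 fold change then ranged from -0.013 to 0.082 for Cltc and from -0.054 to 0.11 for Ap2a1. Without a reversal it ranged from 0.046 to 0.18 for Picalm, 0.0054 to 0.12 for Clta, -0.10 to -0.016 for Ap2a2 and 0.068 to 0.15 for Clint1. The log2 odds ratio ranged from -0.049 to 0.61 for the Eps15 182 nt exon, from -0.026 to 0.51 for the Clint1 75 nt exon, from -1.54 to 0.50 for the Epn1 acceptors 84 nt apart and from -0.82 to 1.28 for the Ap2a1 acceptors 53 nt apart.

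Over all features, DESeq2 called 96 genes, 376 acceptor choices, 242 donor choices, 107 cassette exons and 88 acceptor pairs where edgeR called 0, 0, 3, 0 and 0. Limma called 45 acceptor choices, 56 donor choices and 6 acceptor pairs. Leaving out a library gave 0 to 1172 genes (1172 without WT replicate 1), 0 to 5 donor choices and 0 to 3 acceptor pairs. The cause was not tested. The labels do not say that a replicate number marks a shared batch. Same-numbered libraries of S34F and WT correlated at 0.253, 0.317 and 0.0393, and libraries of unlike number at -0.367 to 0.142. These are not correlations of the gene levels themselves. The libraries of replicate 1 share male cells. With a replicate block 5 genes and 0 donor choices were called, and no member. Depth limits the forms with few reads: the third Picalm acceptor rests on 44 reads in S34F and 2 in WT.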
